A study of Homo sapiens with 8 samples.

Results

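The response of MV4-11 cells to palbociclib given together with tranylcypromine (TCP) was measured by RNA-seq as the difference between 2 libraries of cells that received both molecules (the combination) and 2 libraries of cells that received the vehicle DMSO (control). These are 4 of the 8 libraries of the experiment, and 14151 of the 26364 genes of the expression table reached 1 TPM in at least 2 of the 8 libraries and were compared. MV4-11 is a human acute myeloid leukemia (AML) cell line, and its genotype is given as FLT3-ITD, MLL-AF4, so every library, control included, carries an internal tandem duplication of the receptor FLT3 and an MLL-AF4 fusion. The combination was palbociclib at 0.5 µM and TCP at 5 µM, with 4 days of treatment by the labels. The other 4 libraries, 2 of TCP alone at 5 µM and 2 of palbociclib alone at 0.5 µM, are used here to show where the combination differed from each molecule. The methods of the study have the CDK6 inhibitor given alone on the first day and the LSD1 inhibitor joining it afterwards, so how many of the 4 days the cells spent with both molecules is uncertain. All cells come from 1 cell line, and nothing in the labels says whether the 2 libraries of a group came from separate cultures, so the p-values measure only the spread between these libraries, which may be technical.

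Palbociclib blocks the kinases CDK4 and CDK6, which phosphorylate the retinoblastoma protein and thereby release the E2F factors that switch on genes of DNA replication and mitosis. In AML with MLL fusions CDK6 is also known to hold back myeloid differentiation. TCP irreversibly blocks LSD1 (the product of KDM1A), a demethylase of histone H3 lysine 4 that works in the CoREST repressor complex and is brought to myeloid enhancers by the factor GFI1. Monocytes and macrophages, the cells into which such blasts can differentiate, are known for granule and calcium-binding S100 proteins, receptors for microbial patterns, antibodies and complement, a phagocyte oxidase, abundant lysosomal enzymes and MHC class II antigen presentation.

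Levels are TPM, which are scaled for gene length and sum to 1000000 in every library, so levels can be compared between genes but keep no trace of sequencing depth. Differences are log2 fold changes of TPM + 1 from limma, positive where the combination was higher, and they understate the change of genes with low values. Sizes given as rose by or fell by, and sizes in brackets after a gene's name, are these log2 fold changes. A gene was counted as differentially expressed (DEG) where its log2 fold change was 1 or more in either direction and its adjusted p was below 0.01, with Benjamini-Hochberg adjustment over all 14151 genes. Of these genes 13.7% were DEG between the combination and control, with 5.87% higher in the combination (830 genes) and 7.82% lower (1107 genes). The increases were larger than the decreases. A log2 fold change of more than 3 was reached by 78 genes up to a value of 5 and by a further 16 above it among the increases, and by 14 and 1 genes among the decreases, while 1002 of the 1107 decreases lay between 1 and 2. The 830 genes that rose summed to 41190 and 43983 TPM in the control libraries and to 171166 and 179833 TPM in the combination libraries. The 1107 genes that fell went from 85433 and 85309 TPM to 32045 and 31830 TPM. TPM have a fixed sum, and whether that sum moved the typical gene was not tested. The median gene stood at a log2 fold change of -0.22, against -0.01 after median-ratio scaling, which divides a library by the median over genes of its ratio to the average library, and single changes can be read relative to it. With that scaling 1104 genes were higher and 680 lower. Among the increases, 179 had a control mean under 1 TPM, where the size of the change depends strongly on the 1 added to each TPM. How many reads lie behind such values is unknown.

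The libraries carried the markers of AML blasts. The myeloid surface protein CD33 had 110 and 103 TPM in control and 132 and 136 TPM in combination libraries, and the common leukocyte antigen PTPRC 42.2 and 39.9 TPM against 62.6 and 71.3 TPM. HOXA9 and MEIS1, homeobox genes that MLL fusions maintain, had 156 and 166 TPM and 42.5 and 44.5 TPM in control cells, and myeloperoxidase (MPO) only 3.37 and 3.42 TPM. The red cell gene HBB and the lymphoid genes CD3E and MS4A1 were listed at 0 in all 8 libraries. None of the 3 tested members of a list of 14 erythroid and lymphoid markers was DEG, where 13.7% of all genes were. The study cocultured its cell lines with HS-5 stromal cells. Of 20 stromal markers 12 could be tested and none was DEG, against 13.7% of all genes, although 10 had positive log2 fold changes. Their summed level was 28.2 and 44 TPM in control and 55 and 72.9 TPM in combination libraries. COL1A1, a chain of type I collagen and a defining fibroblast gene, had 0.185 and 1.23 TPM in control, 2.29 and 3.78 TPM in the combination and 22.2 TPM in palbociclib replicate 2, and LUM stayed at or under 0.193 TPM in every library. The part of stromal RNA in the increases was not tested, and in bulk RNA fewer cells of a type and less RNA per cell cannot be told apart.

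The largest increases were those of S100A8, S100A9, S100A12 and FCN1, all products of monocytes and granulocytes. S100A8 and S100A9, the subunits of the calcium-binding protein calprotectin, head the list. S100A8 had 3.49 and 5.86 TPM in control, 12.5 and 31.5 TPM with TCP, 890 and 772 TPM with palbociclib and 4434 and 3357 TPM with the combination, with a log2 fold change against control of 9.44 (standard error 0.40, limma adjusted p = 1.97e-05). S100A12, a related secreted S100 protein, was listed at 0 and 0.411 TPM in control, at 1.37 and 4.53 TPM with TCP, at 8.39 and 6.56 TPM with palbociclib and at 527 and 386 TPM with the combination, a log2 fold change of 8.57 (standard error 0.39, limma adjusted p = 2.23e-05). FCN1 encodes ficolin 1, a soluble lectin of monocytes that starts the complement cascade. It went from 0 and 0.224 TPM in control to 306 and 340 TPM, a log2 fold change of 8.19 (standard error 0.33, limma adjusted p = 1.66e-05), with 1.1 and 3.47 TPM under TCP and 11.5 and 14.8 TPM under palbociclib. For S100A12 and FCN1 no library of the other 3 groups came near the combination libraries. The 250 bases before the RefSeq start site of these genes are shown for S100A8, S100A12 and FCN1 (build GRCh38.p14, 5′ to 3′ on the gene's strand) as large increases whose promoters hold letters of myeloid factors, with capitals marking matches to the letters CCAAT (the CCAAT box), AGAGGAA (PU.1, the master factor of myeloid genes), TTGCNNAA (C/EBP factors), TTTGAA (the CHR element of cell cycle genes) and TATAAA (the TATA box), each read on both strands.
S100A8, chr1:153391189-153391438, minus strand: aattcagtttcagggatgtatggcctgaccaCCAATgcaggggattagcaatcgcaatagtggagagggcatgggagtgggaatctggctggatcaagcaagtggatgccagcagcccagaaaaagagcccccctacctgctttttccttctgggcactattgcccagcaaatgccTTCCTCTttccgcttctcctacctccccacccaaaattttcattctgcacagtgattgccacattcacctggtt
S100A12, chr1:153375622-153375871, minus strand: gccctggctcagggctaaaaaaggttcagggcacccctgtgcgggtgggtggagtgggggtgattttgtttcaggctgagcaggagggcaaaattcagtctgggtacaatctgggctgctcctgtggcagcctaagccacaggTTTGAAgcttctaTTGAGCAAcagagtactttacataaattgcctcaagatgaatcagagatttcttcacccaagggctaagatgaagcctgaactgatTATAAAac
FCN1, chr9:134917913-134918162, minus strand: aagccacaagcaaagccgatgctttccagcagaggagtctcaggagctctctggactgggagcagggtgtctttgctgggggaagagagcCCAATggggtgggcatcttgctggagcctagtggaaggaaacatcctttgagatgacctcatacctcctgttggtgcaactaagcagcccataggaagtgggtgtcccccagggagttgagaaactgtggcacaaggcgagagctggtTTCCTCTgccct

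Of the 21 tested genes for granule and secreted host defence proteins, 16 rose and 1 fell, against 5.87% and 7.82% of all genes. The median log2 fold change was 2.32 against -0.22 for all genes. LYZ, the secreted lysozyme, became the most abundant of them at 26591 and 28617 TPM from 278 and 770 TPM in control (log2 fold change 5.89, standard error 0.52, limma adjusted p = 0.000173). CHI3L1, a chitinase-like protein secreted by macrophages, had 17.3 and 12 TPM in control and 603 and 336 TPM in the combination, and CFP (properdin, which stabilizes the alternative complement pathway) 22.1 and 25.8 TPM and 349 and 410 TPM. The serine proteases of the azurophil granule, which belong to an earlier stage of granulocyte formation, did not move as 1 group. PRTN3 and AZU1 rose by 1.29 and 1.73 on the log2 scale (limma adjusted p = 0.000478 and 2.76e-05), ELANE had a log2 fold change of 0.51, and CTSG (cathepsin G) fell. CTSG had 76.1 and 49.9 TPM in control, 51 and 65 TPM with palbociclib, 22.6 and 13.1 TPM with TCP and 9.77 and 13.5 TPM with the combination (log2 fold change against control -2.33, standard error 0.30, limma adjusted p = 0.000838). The combination libraries overlapped those of TCP but lay under all 4 libraries of control and palbociclib. Against palbociclib alone the log2 fold change of CTSG was -2.23 (limma adjusted p = 0.0148) and that of ELANE -0.79 (limma adjusted p = 0.00782), both short of a DEG.

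Receptors by which phagocytes sense microbes rose as a group. Of 25 tested pattern recognition genes 17 were higher and none lower (median log2 fold change 1.91), against 5.87% and 7.82% of all genes. Among genes with a mean of at least 5 TPM the count was 11. CD14, which hands bacterial lipopolysaccharide to TLR4, had 0.943 and 2.07 TPM in control and 374 and 359 TPM in the combination, between them 4.32 and 6.7 TPM with TCP and 77 and 68 TPM with palbociclib (log2 fold change against control 7.23, standard error 0.24, limma adjusted p = 9.86e-06). FPR1 senses formylated bacterial peptides, and its levels were 0.355 and 0.628 TPM in control and 74.2 and 54.7 TPM in the combination (log2 fold change 5.44, limma adjusted p = 8.46e-06). TLR8, the endosomal receptor of single-stranded RNA, had 0.670 and 0.945 TPM in control and 57.9 and 59.8 TPM in the combination (log2 fold change 5.05, limma adjusted p = 1.32e-05). In all 3 genes the combination lay above the 6 other libraries. TLR1, TLR2, TLR4 and TLR6 rose by between 1.14 and 2.74, and CLEC7A (dectin 1, a receptor of fungal glucan) by 3.06. TLR9, AIM2, NLRP3 and NOD1 had negative log2 fold changes of -0.67 to -0.22 and none was DEG, although the cytosolic sensors NOD2 (2.28) and NLRC4 (1.91) rose.

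The genes of uptake of coated particles also rose. Of 21 tested Fc, complement and scavenger receptor genes 15 were higher and none lower (median 2.05), against 5.87% and 7.82% of all genes. FCAR, the receptor of IgA, was listed at 0.0464 and 0.329 TPM in control and at 69.9 and 61.2 TPM in the combination (log2 fold change 5.82, standard error 0.15, limma adjusted p = 3.4e-06), with 35.5 and 40 TPM under palbociclib alone. FCER1G, the signalling chain shared by several Fc receptors, had 43.6 and 28 TPM in control and 669 and 772 TPM in the combination, a log2 fold change of 4.32 (limma adjusted p = 6.44e-05). CD36, a scavenger receptor for oxidized lipoproteins, had 1.25 and 0.511 TPM against 38.1 and 22.6 TPM, a log2 fold change of 4.04 (limma adjusted p = 0.000164). Reads of FCGR2A and FCGR2B, which rose by 2.30 and 3.26, come from near-identical genes and may have been exchanged. FCGR1A (0.41) and AXL (-0.94) were not DEG. Of the 8 genes of the phagocyte NADPH oxidase, which makes superoxide against ingested microbes, 4 rose and none fell, against the same shares of all genes. CYBB, its catalytic subunit, had 3.18 and 9.02 TPM in control and 305 and 330 TPM in the combination (log2 fold change 5.62, standard error 0.48, limma adjusted p = 0.00015), NCF1 rose by 2.21 and NCF4 by 1.30, and the smaller membrane subunit CYBA had a log2 fold change of 0.24. NCF1 has near-identical pseudogene copies, so its value is uncertain.

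Immunoreceptors of the LILR, SIGLEC, CD300, SIRP and PILR families act in activating and inhibitory pairs on myeloid cells. They were higher for 18 of 25 tested genes and lower for none (median 1.96), against 5.87% and 7.82% of all genes. PILRA had 7.58 and 5.16 TPM in control and 147 and 159 TPM in the combination, with 85.5 and 91.1 TPM under palbociclib (log2 fold change against control 4.40, limma adjusted p = 1.36e-05). LILRA5, an activating receptor of monocytes, followed another pattern. It had 1.73 and 1.9 TPM in control, 6.42 and 8.37 TPM with TCP, 3.57 and 3.34 TPM with palbociclib and 52 and 44.6 TPM with the combination (log2 fold change against control 4.13, standard error 0.15, limma adjusted p = 1.22e-05). The highest library of either molecule alone was far under both combination libraries. LILRB1, an inhibitory receptor of MHC class I, had 8.78 and 10.4 TPM in control and 115 and 151 TPM in the combination (log2 fold change 3.65, limma adjusted p = 6.11e-05). LILRA3, LILRA6 and LILRB3 are near-identical in parts of their sequence, and their increases of 3.21, 3.01 and 2.84 may share reads. CD300A (-1.39, limma adjusted p = 0.0165) and SIGLEC1 (2.23, limma adjusted p = 0.0405) moved widely but were not DEG.

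By MHC class II presentation monocytes and dendritic cells show peptides to helper T cells. Of its 10 tested genes 8 rose and none fell, against 5.87% and 7.82% of all genes, with a median log2 fold change of 1.75 under the combination. The count was 5 among genes with a mean of at least 5 TPM. Levels of the class II genes stayed modest. HLA-DRA, the alpha chain of HLA-DR, had 5.37 and 6.34 TPM in control, 7.51 and 5.42 TPM with palbociclib, 15.9 and 16.8 TPM with TCP and 26.5 and 23.3 TPM with the combination (log2 fold change against control 1.92, standard error 0.16, limma adjusted p = 0.000136). The palbociclib libraries overlapped control and the combination lay above every other library. HLA-DQA1 had 0.237 and 0.186 TPM in control and 7.83 and 8.71 TPM in the combination (log2 fold change 2.93, limma adjusted p = 4.14e-05), with 1 and 0.925 TPM under palbociclib and 3.24 and 2.33 TPM under TCP. IFI30, the thiol reductase that unfolds antigens in the endosome, was more abundant, at 73.1 and 60.9 TPM in control and 817 and 796 TPM in the combination (log2 fold change 3.58, standard error 0.09, limma adjusted p = 3.4e-06). CD74, the chaperone of class II dimers, rose by 1.34 to 877 and 796 TPM. CIITA, the coactivator that switches on class II genes, was not DEG, with 3.88 and 4.54 TPM in control and 5.85 and 5.35 TPM in the combination (log2 fold change 0.34, limma adjusted p = 0.2). HLA-DRB1 and HLA-DRB5, with increases of 1.62 and 1.94, are near-identical genes. The costimulatory ligand CD86, which accompanies class II peptides, had 3.5 and 2.62 TPM in control, 1.8 and 1.78 TPM with palbociclib, 14.8 and 7 TPM with TCP and 24 and 18.4 TPM with the combination.

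MHC class I genes, which nearly all cells express, changed less. Of 17 tested, 2 rose, HLA-E by 1.01 among them, and 2 fell, against 5.87% and 7.82% of all genes. The median log2 fold change was 0.37. The call of HLA-E was lost without control replicate 2 or without either combination library. The count of increases was 6 with median-ratio scaling, 4 after quantile normalization, 4 without control replicate 1, and 1 without control replicate 2, without combination replicate 2 or without the filter on low values. ERAP2, an aminopeptidase that trims class I peptides, fell from 23 and 22.5 TPM to 7.27 and 4.65 TPM (log2 fold change -1.80, limma adjusted p = 0.000669). PSMB9, a subunit of the immunoproteasome, fell by 1.30 on the log2 scale.

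**Figure D1:**
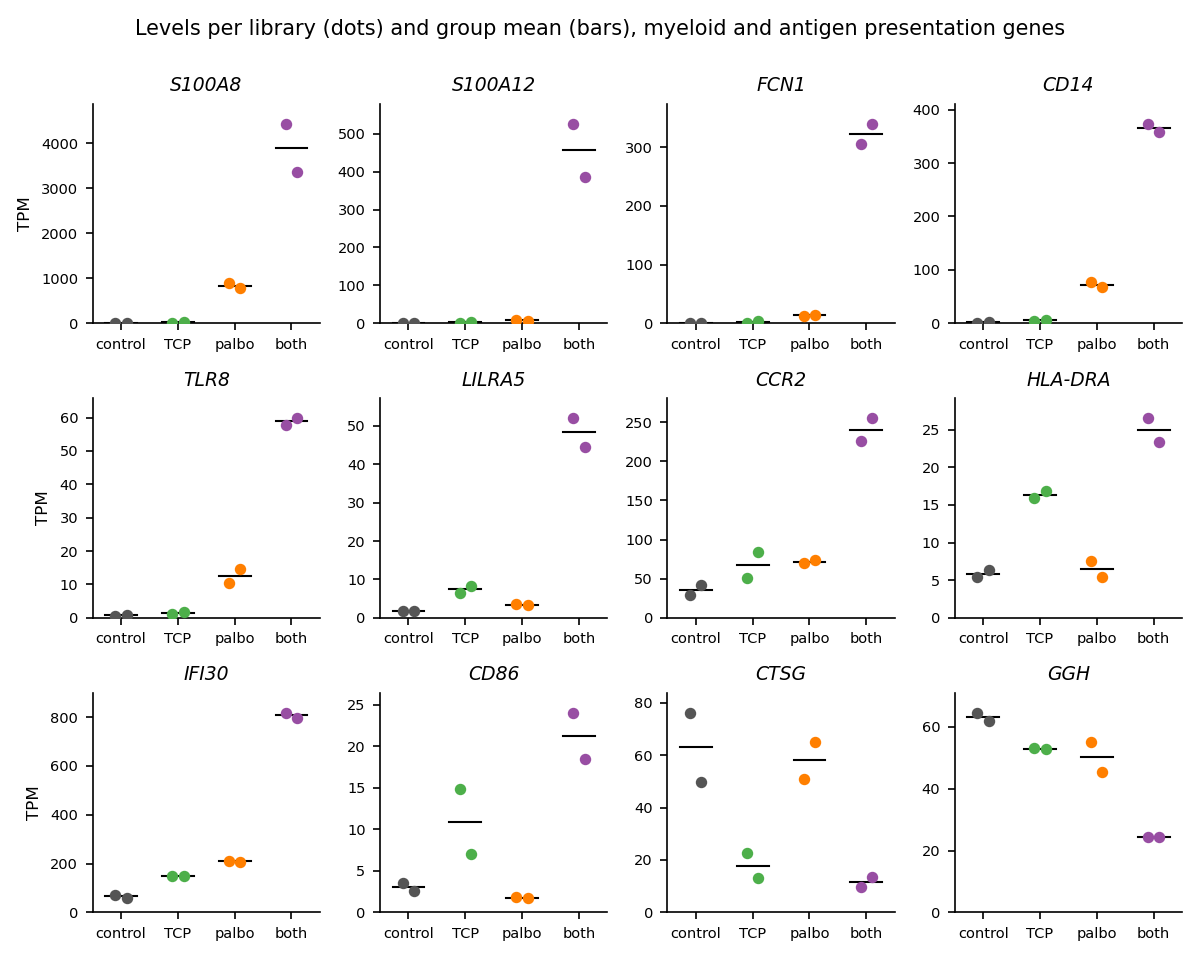
TPM of 12 genes of myeloid cells and antigen presentation in each of the 8 libraries (dots, 2 per group) with the group mean (bar), for control, TCP, palbociclib (palbo) and the combination (both), on axes that start at 0. S100A12, FCN1 and LILRA5 reach their level only with both molecules, HLA-DRA and CD86 have higher values under TCP than in control without passing the test there (adjusted p = 0.0264 and 0.153 from limma), CTSG is low under TCP and the combination, and GGH (a lysosomal hydrolase of folates) is lowest in the combination.

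Lysosomal genes rose together. Of 31 tested enzymes and membrane proteins of the lysosome 18 rose and none fell, against 5.87% and 7.82% of all genes. All 31 had positive log2 fold changes, and their summed level went from 3168 and 3193 TPM in control to 10375 and 11178 TPM. PSAP (prosaposin, precursor of activators of sphingolipid breakdown) had 151 and 124 TPM in control and 1126 and 1076 TPM in the combination (log2 fold change 3.0, standard error 0.12, limma adjusted p = 1.78e-05). GRN (progranulin) rose by 2.73 to 2001 and 2196 TPM, and the cathepsins CTSD and CTSB by 2.27 each. CTSL (0.50), LAMP2 (0.06) and NPC1 (0.07) were not DEG. Of 14 tested lipid handling genes 5 rose and 2 fell, against 5.87% and 7.82% of all genes, with a median of -0.23 close to that of all genes. LRP1, a large endocytic receptor, had 1.85 and 2.05 TPM in control and 30.8 and 41 TPM in the combination (log2 fold change 3.63, limma adjusted p = 6.97e-05), PLTP (phospholipid transfer protein) rose by 1.81 and the cholesterol exporter ABCA1 by 1.54. The entry MIR1228, which rose by 5.40, lies inside LRP1 (chromosome 12 of GRCh37, 57588287 to 57588359 within 57522266 to 57607144, on the same strand), so its reads and those of LRP1 cannot be told apart. VLDLR fell by 1.72, and FABP5 by 1.29, the latter call being lost without control replicate 2 and without either combination library. Without combination replicate 2 the increases numbered 3, and the decreases numbered 1 without control replicate 2, without either combination library or with median-ratio scaling.

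Genes of iron storage rose as well. Of 28 tested genes of iron handling and defence against lipid peroxidation, 7 rose and none fell, against 5.87% of all genes that were higher. The count of increases was 4 without the filter on low values. The ferritin chains FTH1 and FTL, which store iron, were already among the abundant transcripts. FTH1 had 1843 and 1776 TPM in control and 5212 and 5996 TPM in the combination (log2 fold change 1.63, standard error 0.14, limma adjusted p = 0.000167), and FTL 7414 and 8799 TPM against 22105 and 26447 TPM (log2 fold change 1.58, limma adjusted p = 0.00067). HMOX1, heme oxygenase, had 4.67 and 2.95 TPM and 32 and 42 TPM (log2 fold change 2.99, limma adjusted p = 8.75e-05), and SLC11A1, a metal transporter of the phagosome, rose by 2.07. The transferrin receptor TFRC had a log2 fold change of -0.76 and GPX4, which reduces lipid peroxides, of 0.25, and neither was DEG. SLC7A11, the cystine importer, rose by 1.47, a call that was lost when any of the 4 libraries was left out. Leaving out control replicate 2 gave 1 decrease.

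Receptors of cytokines and chemokines were higher for 14 of 22 tested genes and lower for 1 (median 1.14), against 5.87% and 7.82% of all genes. CX3CR1, the fractalkine receptor of patrolling monocytes, had 2.16 and 2.33 TPM in control and 39.2 and 49 TPM in the combination (log2 fold change 3.79, limma adjusted p = 9.97e-05). CCR2, which guides classical monocytes to CCL2, had 29 and 41.7 TPM in control, 50.7 and 83.6 TPM with TCP, 69.9 and 73.8 TPM with palbociclib and 226 and 255 TPM with the combination (log2 fold change against control 2.75, standard error 0.25, limma adjusted p = 0.000186). CSF1R, the receptor of macrophage colony-stimulating factor, went from 14.6 and 14.7 TPM to 86.9 and 90.7 TPM (log2 fold change 2.52, limma adjusted p = 5.85e-06), and IL10RA rose by 2.68. IL7R, the receptor of interleukin 7, had 11.2 and 8.45 TPM in control and 503 and 341 TPM in the combination, next to 371 and 244 TPM with palbociclib alone (log2 fold change against control 5.27, standard error 0.33, limma adjusted p = 5.34e-05). FLT3, the mutated receptor of these cells, was the member that fell, from 249 and 221 TPM to 81.1 and 62.6 TPM (log2 fold change -1.71, standard error 0.22, limma adjusted p = 0.00083), with 94.8 and 69.8 TPM under palbociclib alone.

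Secreted cytokines and chemokines did not follow as a group, with 2 of 23 tested genes higher and 4 lower, against 5.87% and 7.82% of all genes. CCL2, which recruits monocytes, had 9.28 and 10.3 TPM in control, 26.7 and 21.8 TPM with TCP, 120 and 199 TPM with palbociclib and 336 and 498 TPM with the combination (log2 fold change against control 5.25, standard error 0.27, limma adjusted p = 2.88e-05). CCL5, CXCL10, VEGFA and IL18 were the decreases, from -2.72 to -1.31, and IL1B, with 2.84 and 26.3 TPM in the 2 control libraries, was not DEG (log2 fold change 2.70, limma adjusted p = 0.0694). The decreases rest on the full set of libraries. They numbered 0 without control replicate 1, without either combination library or without the filter on low values, 1 without control replicate 2, and 2 with quantile normalization, median-ratio scaling or no trend. The call of CCL24, the other increase, was lost without control replicate 1 and without combination replicate 1.

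Interferon-stimulated genes, which defend against viruses, differed widely between the control libraries. Of 38 tested, 1 rose and none fell, against 5.87% and 7.82% of all genes, and the median log2 fold change was -0.65. IFIT2 had 168 and 65.4 TPM in control and 12.3 and 8.66 TPM in the combination (log2 fold change -3.22, standard error 0.85, limma adjusted p = 0.0164). The 38 genes summed to 4195 TPM in control replicate 1 and 2389 TPM in control replicate 2, around the 3036 and 3295 TPM of the combination. The increase was IFITM3 (1.09), lost without control replicate 2 or either combination library, and the decreases numbered 1 with the replicate block, 3 when only the 4 libraries were fitted and 4 at an adjusted p below 0.05.

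Of 25 tested transcription factors of myeloid differentiation 10 rose and 4 fell, against 5.87% and 7.82% of all genes, with a median of 0.33. BCL6, a repressor used by maturing myeloid cells, had 0.734 and 1.71 TPM in control and 17.9 and 20.2 TPM in the combination (log2 fold change 3.21, limma adjusted p = 0.000136). KLF4, which drives monocyte formation, had 7.26 and 4.27 TPM against 31.5 and 30.5 TPM (log2 fold change 2.28, limma adjusted p = 0.000382). CEBPB, CEBPD, CEBPA, IRF8 and SPI1 moved less than BCL6 and KLF4. CEBPB and CEBPD rose by 1.07 and 1.12, while CEBPA, which is needed for the granulocyte and monocyte lineages, had 261 and 285 TPM in control and 278 and 254 TPM in the combination (log2 fold change -0.04), IRF8 had a log2 fold change of 0.29, and SPI1 one of 1.01, whose call was lost without control replicate 1 or without combination replicate 2. EGR1, BATF3, NR4A1 and IRF1 were the decreases. Their number was 2 without control replicate 1, without combination replicate 1 or with median-ratio scaling, and 1 without combination replicate 2. BATF3, a factor of dendritic cells, had 6.32 and 5.07 TPM in control and 0.665 and 0.652 TPM in the combination.

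Among transcription factors of leukemic progenitors 2 of 18 tested genes were lower and none higher (median -0.47), a share near the 7.82% of all genes, and the count was 1 without control replicate 1, without combination replicate 2 or with median-ratio scaling. SATB1, a chromatin organizer of early blood cells, fell from 221 and 193 TPM to 89.9 and 85.1 TPM (log2 fold change -1.23, limma adjusted p = 0.000491), and MEF2C from 128 and 118 TPM to 61.7 and 53.2 TPM, a call lost without control replicate 1, without combination replicate 2, or under either other scaling. MYC had 865 and 860 TPM in control and 471 and 431 TPM in the combination, a log2 fold change of -0.94 that passed the adjusted p (9.14e-05 from limma) but not the fold threshold. HOXA9 (-0.74), MEIS1 (-0.44), MYB (-0.44) and RUNX1 (-0.12) were not DEG. GFI1, the factor that recruits LSD1, had 200 and 200 TPM against 196 and 221 TPM. None of the 14 genes of the LSD1-CoREST complex was DEG, where 13.7% of all genes were, so in a list of this length the count says little. Of the 14, 12 had negative log2 fold changes (median -0.37). KDM1A itself had 79.6 and 85 TPM in control and 47.5 and 45.6 TPM in the combination (log2 fold change -0.81, limma adjusted p = 0.000315). TCP acts on the LSD1 protein and palbociclib on kinase activity, so the RNA of the targets does not check that they were inhibited. With a pseudocount of 0.1, 1 gene of the complex was lower. CDK6 had 131 and 162 TPM in control and 107 and 100 TPM in the combination (log2 fold change -0.49), and CDK4 183 and 205 TPM against 89.1 and 93.6 TPM (log2 fold change -1.07, limma adjusted p = 0.000214), a call lost without control replicate 2 (-0.99) and under either other scaling.

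Genes of proliferation fell in large numbers. Of 43 tested genes of mitosis and cytokinesis 39 fell, of 38 genes of replication licensing and the replication fork 35, of 33 genes of homologous recombination and checkpoint repair 20, and of 30 genes of nucleotide synthesis 14, against 7.82% of all genes, and none of the genes in these 4 lists rose. The medians were -1.68, -1.42, -1.21 and -0.98. AURKB, the kinase of the chromosomal passenger complex, had 69.7 and 66.5 TPM in control and 14.9 and 15.1 TPM in the combination (log2 fold change -2.11, standard error 0.11, limma adjusted p = 2.9e-05). CENPA, the histone variant of centromeres, fell from 58.4 and 80.8 TPM to 15.5 and 15.4 TPM, and BUB1B, a spindle checkpoint kinase, from 64.2 and 73.2 TPM to 14.9 and 16.3 TPM. Among replication genes, CDT1, which loads the MCM helicase at origins, had 138 and 130 TPM in control, 53.7 and 55.4 TPM with palbociclib and 30.9 and 31.6 TPM with the combination (log2 fold change against control -2.07, standard error 0.08, limma adjusted p = 1.45e-05). POLE2, a subunit of the leading-strand polymerase, and PRIM1, the primase, fell by 2.20 and 2.15 on the log2 scale. CHEK1, the checkpoint kinase of the stalled fork, had 41.1 and 43.1 TPM in control and 8.91 and 8.05 TPM in the combination (log2 fold change -2.19, limma adjusted p = 4.03e-05). DUT, which keeps uracil out of DNA, fell from 220 and 227 TPM to 64.8 and 71.1 TPM, and the thymidylate synthase TYMS by 1.63 on the log2 scale. In each of these genes the control and combination libraries did not overlap, which held for all 1937 DEG and was a condition for naming a gene. With median-ratio scaling 9 nucleotide synthesis genes fell. The 250 bases before the start of CDT1 and CENPA are shown for these groups, with capitals for the E2F site (TTTCCCGC or TTTGGCGC), the CHR element and the CCAAT box on either strand, which are the letters known from promoters of replication and mitosis genes.
CDT1, chr16:88803539-88803788, plus strand: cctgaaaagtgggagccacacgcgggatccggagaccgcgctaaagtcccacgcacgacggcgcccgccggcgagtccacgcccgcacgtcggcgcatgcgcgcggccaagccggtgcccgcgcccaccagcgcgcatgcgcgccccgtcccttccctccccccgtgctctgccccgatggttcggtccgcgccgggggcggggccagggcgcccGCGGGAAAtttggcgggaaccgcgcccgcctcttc
CENPA, chr2:26785806-26786055, plus strand: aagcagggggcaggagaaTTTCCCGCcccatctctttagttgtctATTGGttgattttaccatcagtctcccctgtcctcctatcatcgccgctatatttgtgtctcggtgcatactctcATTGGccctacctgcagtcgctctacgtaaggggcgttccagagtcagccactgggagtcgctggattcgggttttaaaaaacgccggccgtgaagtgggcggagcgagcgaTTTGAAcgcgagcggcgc

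Of 29 genes of G1 control 8 fell and none rose (median -0.52), against 7.82% of all genes that were lower. CDK2, the kinase that follows CDK4 and CDK6, fell from 92.6 and 105 TPM to 31.7 and 30.2 TPM (log2 fold change -1.64, limma adjusted p = 0.000106), and the repressor E2F8 and the phosphatase CDC25A by 1.73 and 1.59 on the log2 scale. E2F1 fell by 1.22. The cyclin CCND3 had 208 and 198 TPM in control and 366 and 410 TPM in the combination, a log2 fold change of 0.93 that was not DEG. The inhibitor CDKN1A had 11.4 and 8.2 TPM against 7.63 and 7.96 TPM (log2 fold change -0.28, limma adjusted p = 0.507), and RB1 a log2 fold change of -0.07. The decreases numbered 5 with median-ratio scaling, where 2 genes of this list rose, and 1 rose with quantile normalization or without combination replicate 1. Among 23 tested p53 targets 2 rose and 3 fell, shares near the 5.87% and 7.82% of all genes, namely TP53INP1 (2.73) and BTG2 (2.41), both brakes on proliferation, and SESN2 (-1.71), BBC3 (-1.38) and AEN (-1.24). The call of SESN2 was lost without control replicate 1 or without either combination library, and that of AEN without control replicate 2 or combination replicate 2.

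The ATF4 pathway is the response that supplies amino acids and is switched on by amino acid shortage or endoplasmic reticulum stress. Of its 25 tested genes 18 were lower and none higher (median -1.72), against 7.82% and 5.87% of all genes. ATF4 itself had 811 and 779 TPM in control and 249 and 273 TPM in the combination (log2 fold change -1.60, standard error 0.08, limma adjusted p = 2.51e-05). ASNS, asparagine synthetase, had 209 and 137 TPM in control and 16.5 and 15.8 TPM in the combination (log2 fold change -3.31, limma adjusted p = 0.000369), and CBS, which starts the conversion of homocysteine to cysteine, 50.4 and 40.7 TPM against 3.71 and 1.76 TPM (log2 fold change -3.68, limma adjusted p = 0.000208). GPT2, a mitochondrial alanine transaminase, and TRIB3, a pseudokinase that ATF4 induces, fell by 3.47 and 3.32 on the log2 scale. Control replicate 1 was above control replicate 2 in most of these genes, and the combination libraries were under both, as in every DEG that fell. PPP1R15A (-0.27), NUPR1 (-0.39) and the kinases EIF2AK3 (-0.56) and EIF2AK4 (-0.37), which act upstream of ATF4, were not DEG.

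Enzymes of serine, glycine and one-carbon metabolism were lower for 8 of 16 tested genes and higher for 1, against 7.82% and 5.87% of all genes. The increase was MTHFS (1.09, a call lost without combination replicate 1). PHGDH, the first step from glycolysis to serine and the largest decrease of all genes, had 274 and 179 TPM in control and 1.3 and 2.06 TPM in the combination (log2 fold change -6.39, standard error 0.38, limma adjusted p = 4.36e-05). PSAT1, the next enzyme, fell from 348 and 268 TPM to 32.1 and 26.5 TPM (log2 fold change -3.34, limma adjusted p = 0.000132), PSPH, the last step, by 1.5 and the mitochondrial SHMT2 by 1.69 on the log2 scale. BCAT1, the transaminase of branched-chain amino acids, had 65.9 and 49.2 TPM in control and 3.14 and 2.04 TPM in the combination (log2 fold change -4.03, standard error 0.31, limma adjusted p = 0.000103). MTHFD2 (-0.72) was not DEG. Of 21 tested amino acid transporters 9 fell and 4 rose, against 7.82% and 5.87% of all genes. SLC7A5, which imports leucine and other large neutral amino acids, had 381 and 312 TPM in control and 54.4 and 62 TPM in the combination (log2 fold change -2.55, standard error 0.17, limma adjusted p = 6.86e-05), and SLC38A5, a glutamine transporter, fell by 2.77. The increases were SLC43A2 (2.45), SLC15A3 (2.02), SLC7A11 (1.47) and SLC36A1 (1.29), of which SLC15A3 and SLC36A1 carry peptides or amino acids out of lysosomes.

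Of 20 cytosolic aminoacyl-tRNA synthetases 10 fell, against 7.82% of all genes that were lower, none rose and all 20 had negative log2 fold changes (median -1.05). GARS, the glycyl-tRNA synthetase, had 279 and 264 TPM in control and 52 and 55.7 TPM in the combination (log2 fold change -2.31, limma adjusted p = 4.64e-05), and AARS, the alanyl-tRNA synthetase, 326 and 286 TPM against 75.4 and 73.9 TPM (log2 fold change -2.02, limma adjusted p = 5.34e-05). HARS (-0.24) and QARS (-0.15) were not DEG. Of 34 tested ribosome biogenesis genes 8 fell, none rose and 26 were not DEG (median -0.80), against 7.82% of all genes that were lower, and the count was 4 with median-ratio scaling and 5 after quantile normalization. FBL, the methyltransferase of ribosomal RNA, fell by 1.42 and NPM1 by 1.31 on the log2 scale. Promoters of BCAT1 and AARS are shown because they hold the letters TGATGNAA, known as the element read by ATF4 together with a C/EBP factor, in capitals with the CCAAT box.
BCAT1, chr12:24949102-24949351, minus strand: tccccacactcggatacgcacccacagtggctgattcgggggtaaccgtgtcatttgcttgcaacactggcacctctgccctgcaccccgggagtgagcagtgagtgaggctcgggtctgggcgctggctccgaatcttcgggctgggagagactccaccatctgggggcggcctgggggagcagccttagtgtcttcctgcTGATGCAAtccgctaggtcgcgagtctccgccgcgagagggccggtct
AARS, chr16:70289507-70289756, minus strand: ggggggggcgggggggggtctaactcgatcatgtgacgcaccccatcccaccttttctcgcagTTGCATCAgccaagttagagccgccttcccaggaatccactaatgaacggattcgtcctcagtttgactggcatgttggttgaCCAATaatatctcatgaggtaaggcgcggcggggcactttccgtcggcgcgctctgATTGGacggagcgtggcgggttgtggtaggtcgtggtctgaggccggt

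Of 24 tested genes of glycolysis and lactate 3 rose, 6 fell and 15 were not DEG (median -0.58), where 5.87% of all genes rose and 7.82% fell. Their summed level was 13375 and 12911 TPM in control and 9228 and 9990 TPM in the combination. HK3, the hexokinase of myeloid cells, had 11.5 and 9.64 TPM in control and 118 and 155 TPM in the combination (log2 fold change 3.56, standard error 0.16, limma adjusted p = 2.18e-05), and PFKFB3, which makes the activator of phosphofructokinase, rose by 1.66. HK2 had 66.7 and 73.7 TPM in control, 95.2 and 92.3 TPM with TCP, 67.2 and 72 TPM with palbociclib and 154 and 153 TPM with the combination (log2 fold change against control 1.12, standard error 0.08, limma adjusted p = 7.48e-05). ENO2 (-3.40), ALDOC (-2.14), PFKFB4 (-1.85), LDHA (-1.42), the lactate transporter SLC16A1 (-1.38) and LDHB (-1.0) fell, while GAPDH (-0.51) and PKM (0.39) were not DEG. The calls of ALDOC and PFKFB4 were lost without control replicate 1 or without either combination library. Of 22 tested cholesterol synthesis genes 6 fell and none rose (median -0.82), against 7.82% of all genes that were lower. INSIG1, the sterol sensor, fell from 553 and 498 TPM to 203 and 172 TPM (log2 fold change -1.49, limma adjusted p = 0.000321). The count was 3 without control replicate 1, with median-ratio scaling or without the filter on low values, and 2 without combination replicate 2, and the call of HMGCS1 (-1.65) was lost whichever of the 4 libraries was left out.

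Among genes of the BCL2 family, which decide on apoptosis at mitochondria, 2 of 14 were higher and 3 lower, against 5.87% and 7.82% of all genes. BCL2, the survival factor, had 45.5 and 45.9 TPM in control, 29.5 and 22 TPM with TCP, 15.4 and 11.7 TPM with palbociclib and 13.1 and 9.93 TPM with the combination (log2 fold change against control -1.91, standard error 0.19, limma adjusted p = 0.000288). The death-promoting PMAIP1 (NOXA) fell from 166 and 91.6 TPM to 21.7 and 17.8 TPM (log2 fold change -2.59, limma adjusted p = 0.00166), a call lost without control replicate 1 or without combination replicate 2, and BBC3 (PUMA) by 1.38 on the log2 scale. BCL2L11 (BIM), another death-promoting member, had 30.6 and 27.7 TPM in control and 81.1 and 76.1 TPM in the combination (log2 fold change 1.40, limma adjusted p = 0.000105). MCL1 (0.22) and BCL2L1 (0.37) were not DEG. The other increase, BCL2A1 (2.46), was lost without control replicate 2, without either combination library, with a pseudocount of 0.1 and without the filter on low values. Of 22 tested genes downstream of FLT3, STAT5 and MAPK signalling 1 rose and 2 fell, shares near the 5.87% and 7.82% of all genes. SOCS3, a feedback inhibitor of STAT signalling, had 55.5 and 52.5 TPM in control and 145 and 152 TPM in the combination (log2 fold change 1.44, limma adjusted p = 0.000243), and ETV4, an ETS factor, 30.3 and 28.2 TPM against 2.84 and 2.9 TPM (log2 fold change -2.97, standard error 0.16, limma adjusted p = 3.19e-05). EGR1 was the other decrease (-2.11), lost without control replicate 2, without either combination library, without the filter on low values or with median-ratio scaling. DUSP6 (-0.36) and PIM1 (-0.10) were not DEG, and 3 genes rose and 1 fell with median-ratio scaling.

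**Figure D2:**
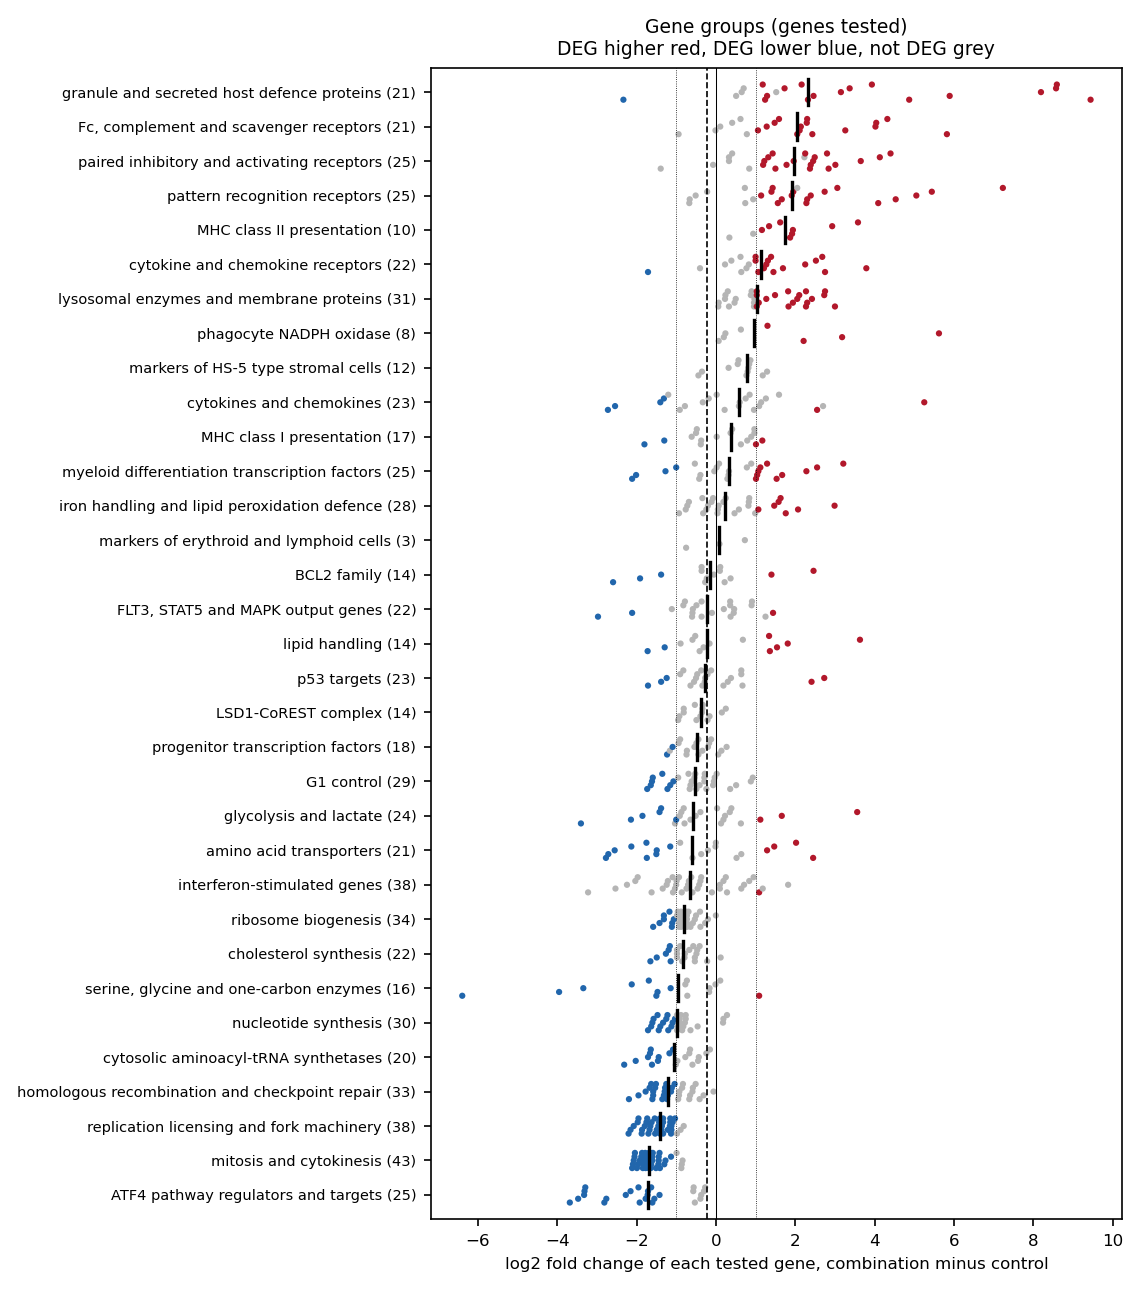
Log2 fold change, combination minus control, of each tested gene (dot) in 33 gene groups ordered by their median (black bar), with the number tested in brackets, DEG that were higher in red, DEG that were lower in blue and other genes in grey. Dotted lines mark -1 and 1 and the dashed line the median of all genes, -0.22, and the groups run from the ATF4 pathway at -1.72 to granule proteins at 2.32.

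The comparison with palbociclib alone asks what TCP added. Of all genes 0.502% were DEG between the combination and palbociclib, 71 genes, of which 65 were higher in the combination and 6 lower. The number is sensitive to the libraries. It was 114 with the replicate number as a block, 42 with a pseudocount of 0.1, 38 without the filter on low values and 10 when only the 4 libraries were fitted, and it was 1 when combination replicate 1, combination replicate 2, palbociclib replicate 1 or palbociclib replicate 2 was left out. The largest differences were those of S100A12 (5.75, standard error 0.39, limma adjusted p = 0.00199), FCN1 (4.52, limma adjusted p = 0.00236), VCAN (4.49, limma adjusted p = 7.66e-05) and LILRA5 (3.46, limma adjusted p = 0.000491). VCAN, the matrix proteoglycan versican that monocytes secrete, had 0.783 and 1.16 TPM in control, 2.86 and 2.79 TPM with palbociclib, 14.7 and 17 TPM with TCP and 88.4 and 81.8 TPM with the combination. CD86 (2.98), LILRA6 (2.58), CD209 (2.54) and LILRA3 (2.44) followed. CD209, a lectin of dendritic cells and macrophages, had 0.674 to 2.49 TPM in the other 6 libraries and 9.41 and 9.58 TPM in the combination. HK2 (1.13, limma adjusted p = 0.00202) and the cathepsins CTSH (1.91), CTSS (1.38) and CTSB (1.06) were also DEG against palbociclib. VIM, the intermediate filament vimentin, was named after its values were seen. It had 292 and 340 TPM in control, 288 and 364 TPM with palbociclib, 703 and 699 TPM with TCP and 834 and 859 TPM with the combination (log2 fold change against palbociclib 1.38, limma adjusted p = 0.0041).

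All 10 tested MHC class II genes were higher in the combination than with palbociclib, with log2 fold changes from 0.81 to 2.24 and a median of 1.55 against -0.07 for all genes, and 5 were DEG, namely HLA-DQA1 (2.24), IFI30 (1.95), HLA-DRA (1.81), HLA-DRB1 (1.56) and HLA-DPA1 (1.54). Of the 25 tested paired receptors 5 were DEG and of the 25 pattern recognition receptors also 5, against 0.502% of all genes. Amino acid genes were close to their level under palbociclib. Of the 25 ATF4 pathway genes none was DEG against palbociclib, where 0.502% of all genes were, so that count says little. Their median was -0.08 against -0.07 for all genes, and that of the 20 aminoacyl-tRNA synthetases was -0.04. PHGDH had 2.09 and 1.36 TPM with palbociclib against 1.3 and 2.06 TPM with the combination (log2 fold change -0.03, limma adjusted p = 0.984). All 43 mitosis genes and 37 of 38 replication genes had a negative log2 fold change against palbociclib, with medians of -0.47 and -0.46, where 65.4% of all genes had a negative value. None of them reached the fold threshold, and CDT1 (-0.78, limma adjusted p = 0.00649), CDC7 (-0.75, limma adjusted p = 0.00906) and CDK1 (-0.81, limma adjusted p = 0.00789) passed the adjusted p.

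The 6 genes that were lower in the combination than with palbociclib were GGH, NEIL3, LINC00925, TP53INP2, ADAMDEC1 and SERPINB10. GGH, which removes glutamates from folates, had 64.5 and 62 TPM in control, 55.1 and 45.5 TPM with palbociclib, 53 and 52.8 TPM with TCP and 24.4 and 24.5 TPM with the combination (log2 fold change -1.34 against control and -1.01 against palbociclib, limma adjusted p = 9.69e-05 and 0.00644), so it was the only one of the 6 that was DEG lower in both comparisons. TP53INP2 and ADAMDEC1, named like SERPINB10, NEIL3 and LINC00925 after their values were seen, had risen against control by 1.79 and 3.08, to levels under those of palbociclib alone. SERPINB10 was listed at 0 in both control libraries, at 4.83 and 5.03 TPM with palbociclib and at 1.09 and 1.07 TPM with the combination. ADAMDEC1, a metalloprotease of macrophages, had 0.200 and 0.353 TPM in control, 23.8 and 30.7 TPM with palbociclib and 9.33 and 10.2 TPM with the combination.

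Against TCP alone 12.2% of genes were DEG, 1720 in all, with 772 higher in the combination and 948 lower. Proliferation and amino acid genes were far lower in the combination, with log2 fold changes against TCP of -2.12 for AURKB, -1.81 for CDT1, -6.02 for PHGDH and -3.41 for CBS. Class II genes differed among themselves in this comparison. HLA-DRA had a log2 fold change against TCP of 0.58 (limma adjusted p = 0.0211), HLA-DRB1 of 0.37 (limma adjusted p = 0.0861), HLA-DRB5 of 0.46 (limma adjusted p = 0.1) and CD86 of 0.97 (limma adjusted p = 0.0364), none of which was DEG, whereas IFI30 (2.43), HLA-DQA1 (1.30) and HLA-DPA1 (1.04) were. These 3 comparisons share the combination libraries, so they are not independent of each other.

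**Figure D3:**
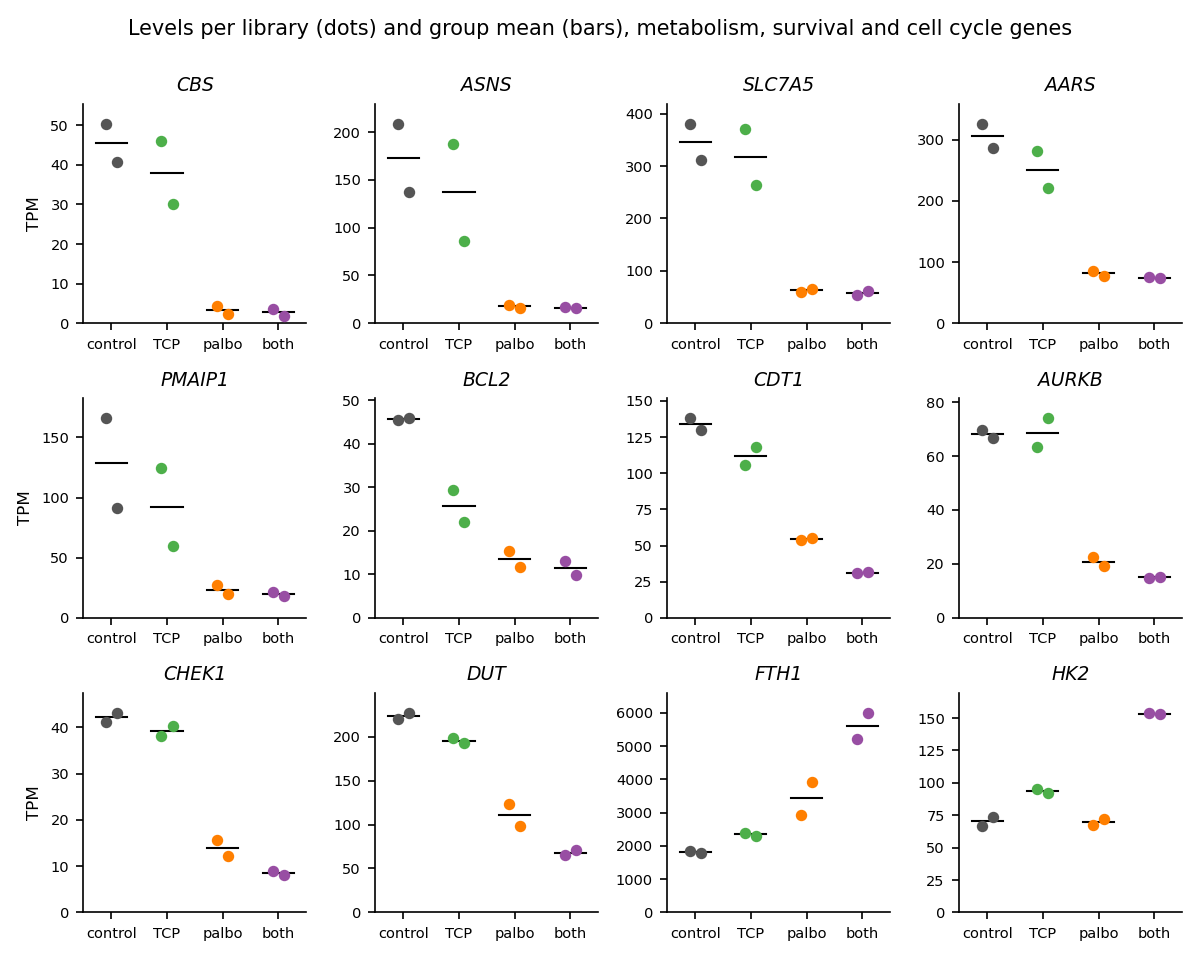
TPM of 12 genes of amino acid supply, apoptosis, the cell cycle, iron and glycolysis in each of the 8 libraries (dots, 2 per group) with the group mean (bar), for control, TCP, palbociclib (palbo) and the combination (both), on axes that start at 0. CBS, ASNS, SLC7A5 and AARS are low under palbociclib and under the combination. None of them was DEG between these groups, where 0.502% of all genes were. CDT1, CHEK1 and DUT have their lowest values with both molecules although none was DEG against palbociclib, and HK2 is highest with both.

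The letters searched in promoters were compared over 10429 of the 14151 tested genes that matched a RefSeq promoter by symbol, 577 of them DEG that rose and 831 DEG that fell, in the 250 bases before the start on both strands. None of the patterns contains another. The E2F site occurred in 3.1% of all promoters, in 6.74% of those of genes that fell and in 1.91% of those of genes that rose. The CHR element occurred in 8.77%, 14.2% and 13.5%, and the CCAAT box in 35.4%, 42.2% and 34%. For genes that rose, the C/EBP site was found in 11.3% against 6.09% of all promoters, the PU.1 site in 12.1% against 7.52% and the TATA box in 8.67% against 5.65%. The ATF4-C/EBP element was found in 2.65% of promoters of genes that fell and 1.41% of all, and the letters of a GFI1 site (AATCNCNGC) in 3.29% of promoters of genes that rose and 4.44% of all. Among the lists, 20 of 37 mitosis promoters held the CHR element and 27 of 37 the CCAAT box, 10 of 35 replication promoters the E2F site, 7 of 19 pattern recognition promoters the PU.1 site and 4 of 21 ATF4 pathway promoters the composite element. The shares differed between lists. The E2F site was in 0 of 29 promoters of recombination and repair genes and in 3 of 37 mitosis promoters, and the PU.1 site in 1 of 21 lysosomal promoters and 2 of 16 promoters of Fc, complement and scavenger receptors. The 7 promoters printed were picked, after these searches, among genes with large changes whose promoters hold such letters, and a match describes the sequence and is not a binding site in these cells.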

How the data were processed

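RNA from MV4-11 cells was sequenced from libraries made with the Illumina Stranded mRNA Prep kit. The submitters' processing notes name Subread, SAMtools 1.9, featureCounts 1.6.4, DESeq2 1.26.0 and the build hg19. The annotation, gene lengths and strand setting are not given in the sources used here. The authors deposited 1 table of TPM per gene and library, which is the only file used, with 0 columns that belong to no sample. Since TPM keep no read counts, the sequencing depth of each library is unknown and no count test was run.

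Genes were kept where 2 or more of the 8 libraries reached 1 TPM. The values log2(TPM + 1) of the 4 groups went into 1 limma model (version 3.58.1, under R 4.3.3) with a mean for each group (4 residual degrees of freedom), moderation with a mean-variance trend and Benjamini-Hochberg adjustment. Nothing says what libraries with the same replicate number share, so the number was not a term of the model. The test was tried on simulated data first. The members, gene lists and letter patterns were chosen with earlier results of these data known.

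Named genes are the 12 largest increases and decreases, the 3 largest of each in every list, the 8 largest differences in each direction from palbociclib, the markers and the targets CDK4, CDK6 and KDM1A, the changes being taken among DEG whose groups did not overlap and whose higher group averaged 5 TPM or more. Other genes are examples chosen after their values were seen. Values of some genes are not reported here. Promoters were taken from RefSeq (GRCh38.p14) by symbol, and gene positions from GRCh37. Each result was also computed with quantile normalization, median-ratio scaling, rescaling without the entry MIR6087, a pseudocount of 0.1, unfiltered genes, genes averaging 5 TPM or more, a replicate block, only the groups compared, no trend, an adjusted p below 0.05, each library left out in turn and, for promoters, a window of 100 bases.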

Additional observations from a re-analysis of the deposited data

How the results depend on the processing

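Values rest on 2 libraries per group and on TPM without read counts, so counting error could not be separated from other spread. Against control, the total ranged from 1488 to 2185 DEG over all alternatives, and leaving out 1 library gave 1488 to 1690 in all, 631 to 699 higher and 857 to 991 lower. With median-ratio scaling the lower genes numbered 680 against control and 623 against TCP, and quantile normalization gave 1003 higher and 786 lower against control, where 42.8% of DEG were higher in the values as deposited. Against palbociclib, 42 DEG (40 higher, 2 lower) were found with a pseudocount of 0.1, 38 (34 higher) without the filter on low values, 10 (10 higher, 0 lower) with only the groups compared, and 183 (158 higher, 25 lower) at an adjusted p below 0.05. Leaving out either library of either group gave 1 DEG against palbociclib, 1 higher and 0 lower, where the lone library of a group was assumed to vary like the others. Against TCP, leaving out 1 library gave 1296 to 1729. With the replicate block, 114 genes (102 higher, 12 lower) were DEG against palbociclib, 2038 against control and 1816 against TCP. The deviations of libraries with the same number correlated at 0.169 to 0.491 between groups, but nothing in the labels says what a number stands for, and the block changed no call of a named gene. Of 1913 recomputed values of 138 named genes 82 lost their call and 0 changed sign. The settings that left out 1 library lost the most of these calls, and the other settings lost few or none. Of 924 recomputed list counts 78 moved by more than 1.5 times, 14 of them with median-ratio scaling. In a window of 100 bases the E2F site was found in 4.33% of promoters of genes that fell against 1.3% of all. The cause of these differences was not tested.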

Other observations

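Genes outside the lists were read after their values were seen and are given as values. Several encode secreted or matrix proteins of macrophages. THBS1, the adhesive glycoprotein thrombospondin 1, had 34.7 and 36.3 TPM in control, 48.6 and 51.1 TPM with TCP, 727 and 942 TPM with palbociclib and 1261 and 1454 TPM with the combination (log2 fold change against control 5.21, standard error 0.13). C1QA, a chain of the first complement component, was listed at 0.221 and 0.0872 TPM in control and at 28.8 and 23.7 TPM in the combination, and C3, the central complement component, at 2.32 and 3.66 TPM and at 75.5 and 81 TPM. SERPINA1, the inhibitor of neutrophil elastase, had 2.74 and 3.12 TPM in control and 80.9 and 75.8 TPM in the combination. In each of these genes the combination libraries were above all 4 libraries of control and TCP. None of the genes was DEG against palbociclib alone, where 0.502% of all genes were.

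MPEG1, the pore-forming protein perforin 2 of macrophages, had 8.73 and 16.7 TPM in control, 35.4 and 77.2 TPM with TCP, 32.1 and 39.5 TPM with palbociclib and 281 and 287 TPM with the combination. CECR1, a secreted adenosine deaminase of monocytes, had 11 and 7.83 TPM in control, 21.5 and 15.2 TPM with TCP, 55.9 and 57.2 TPM with palbociclib and 190 and 201 TPM with the combination. CES1, a carboxylesterase of monocytes and liver, had 9.73 and 12.3 TPM in control, 357 and 421 TPM with palbociclib and 262 and 300 TPM with the combination, and its log2 fold change of -0.46 against palbociclib did not pass the test (limma adjusted p = 0.262). Among the decreases, SLFN11, which blocks stalled replication forks, had 66.1 and 60.2 TPM in control and 11.3 and 8.04 TPM in the combination (log2 fold change -2.60, standard error 0.19). APOBEC3B, a cytidine deaminase of single-stranded DNA, had 63.4 and 59.5 TPM in control, 24.8 and 21.1 TPM with palbociclib and 14.6 and 12.3 TPM with the combination, and the antisense entry APOBEC3B-AS1, whose reads cannot be told apart from it where the strand setting is unknown, 60.1 and 50.2 TPM and 13.9 and 9.87 TPM.

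Interferon-stimulated genes were higher in the combination than with palbociclib alone by sign, with 37 of 38 log2 fold changes above 0 and a median of 0.38, where 34.5% of all genes were above 0. The lowest adjusted p among them, from limma, was 0.0545.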
